A study of Mus musculus with 6 samples.

Results

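Histone lysine methyltransferases and demethylases are the enzymes that place methyl groups on lysines of histones H3 and H4 ("writers") and take them off ("erasers"). The enzymes described here were taken by name from a list of 45 symbols, which was chosen with earlier results of these data known. In the authors' deposited table of 14681 genes, 39 of these were found by symbol and 5 under a newer symbol of the same Entrez gene (Kmt5a, Kmt5b, Kmt5c, Nsd2 and Nsd3, listed as Setd8, Suv420h1, Suv420h2, Whsc1 and Whsc1l1). Setd1a is not analysed here. The 44 enzymes comprise 22 writers, 16 erasers and 6 SET-domain proteins whose histone residue is disputed or whose main substrate is not a histone.

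The study compared dorsal pancreas of knockout embryos with that of control embryos at embryonic day 18.5, all labelled C57BL/6, by RNA sequencing of ribosome-depleted total RNA, with 3 libraries of each kind. The extraction protocol gives the knockout as Dpy30∆P, a deletion of Dpy30 in pancreas. Dpy30 is a shared core subunit of the COMPASS complexes, in which the H3K4 methyltransferases work. The Cre driver, the alleles carried by the controls, the sex of the embryos and any pooling are not given in the labels, and the file's own name speaks of Pdx1 rather than Dpy30. Whole dorsal pancreas holds epithelium together with stroma, vessels and blood cells, so that in these bulk samples fewer cells of a type and less RNA per cell cannot be told apart.

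Methylation marks different parts of genes. H3K4 methylation lies at active promoters and enhancers, and H3K36 and H3K79 methylation over transcribed gene bodies. H3K9 methylation and H4K20 trimethylation lie in heterochromatin and silenced genes, and H3K27 methylation at genes kept silent by Polycomb. Catalytic subunits of the COMPASS family need the core formed by Wdr5, Rbbp5, Ash2l and Dpy30 for full activity, so the messenger RNA level of a writer and its activity are separate quantities. The table measures the first of these.

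The table gives 1 mean normalized count over all 6 libraries for each gene, so no level per library or per group can be printed. Beside it stand a log2 fold change with its posterior standard deviation and the p of the authors' test, unadjusted and adjusted. Which group is the numerator is not stated. A negative fold change is read here as lower in the knockout and a positive one as higher, on the usual convention, and all directions reverse under the opposite coding. The deposited fold changes are shrunken towards 0, and 92.7% of all genes lie within 0.1 of it. Sizes are therefore given as unshrunken log2 fold changes reconstructed from the deposited value and its posterior standard deviation, each with its standard error (SE). The reconstruction was kept for 43 of the 44 enzymes, those whose z came within 0.1 of that of the deposited p. The extraction protocol gives 3 dissected embryos per group without tying each library to 1 of them, so every p reflects the spread between these libraries, which may be technical.

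No difference in the messenger RNA of any of these enzymes passed the authors' test between knockout and control pancreas. In the authors' deposited table, 0 of the 44 enzymes were called (adjusted p under 0.05), against a background of 0.743% of 12108 genes. Without adjustment, 1 of 44 passed 0.05, Setdb2, or 2.27%, against 5.39% of the 14386 genes with a p in the authors' deposited table. The deposited sign was negative for 23 enzymes and positive for 21. The median reconstructed log2 fold change was -0.07 over 43 enzymes and 0.08 over all 13059 genes with a reconstructed value. For 30 of 44 enzymes (68.2%) the z of the deposited p lay between -1 and 1, as it did for 66.9% of all genes with a p. Neither share shows the enzymes to stand apart from other genes.

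**Figure D1:**
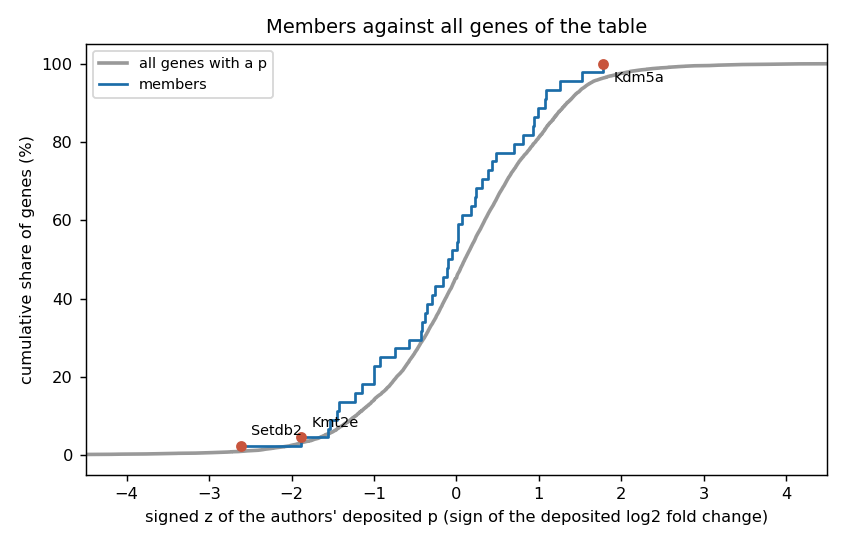
Cumulative share of genes (y axis, percent) by the signed z of the authors' deposited p (x axis), for the 44 enzymes (blue steps) and for all 14386 genes with a p (grey line). The 2 curves run close together; Setdb2 and Kmt2e are the lowest enzymes and Kdm5a is the highest, and 0 enzymes were called.

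The H3K4 methyltransferases are the catalytic partners of Dpy30. Of the 6 COMPASS writers, 5 were in the table, and 0 of these 5 were called. Their reconstructed log2 fold changes lay between -0.37 and 0.12, and 4 of the 5 had a z between -1 and 1. Kmt2d (Entrez gene 381022; chromosome 15, 98831669 to 98874077, GRCm38) methylates H3K4 at enhancers and had a mean count of 1297, the second highest of all the enzymes after Nsd1. The authors' deposited table gave it a log2 fold change of -0.05 ± 0.20 (posterior SD) with an adjusted p of 1.00. Unshrunken, this was -0.23 ± 0.40 (SE), with a 95% interval from -1.02 to 0.56. Kmt2c, the other enhancer methyltransferase of the family, had a mean count of 997 and was at -0.37 ± 0.32 (SE; p = 0.250 in the authors' deposited table). Its interval, from 0.499 to 1.20 times the control level, was the narrowest among the enzymes.

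Kmt2a and Kmt2b, the MLL1 and MLL2 enzymes that act at CpG-rich promoters, had reconstructed values of -0.33 ± 0.33 and 0.01 ± 0.49 (SE). In the authors' deposited table their p-values were 0.318 and 0.981. Setd1b, of the SET1 pair that places most promoter H3K4 trimethylation, was at 0.12 ± 0.39 (SE; p = 0.760 in the authors' deposited table). The 95% intervals of Kmt2a (-0.98 to 0.32), Kmt2b (-0.94 to 0.97) and Setd1b (-0.65 to 0.88) lay wholly within a 2-fold change either way. Over the 5 COMPASS writers together, the intervals reached down to 0.492 times and up to 1.95 times the control level. Setd7, a monomethyltransferase that works outside COMPASS and also methylates non-histone proteins, was at 0.67 ± 0.67 (SE; p = 0.321 in the authors' deposited table).

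**Figure D2:**
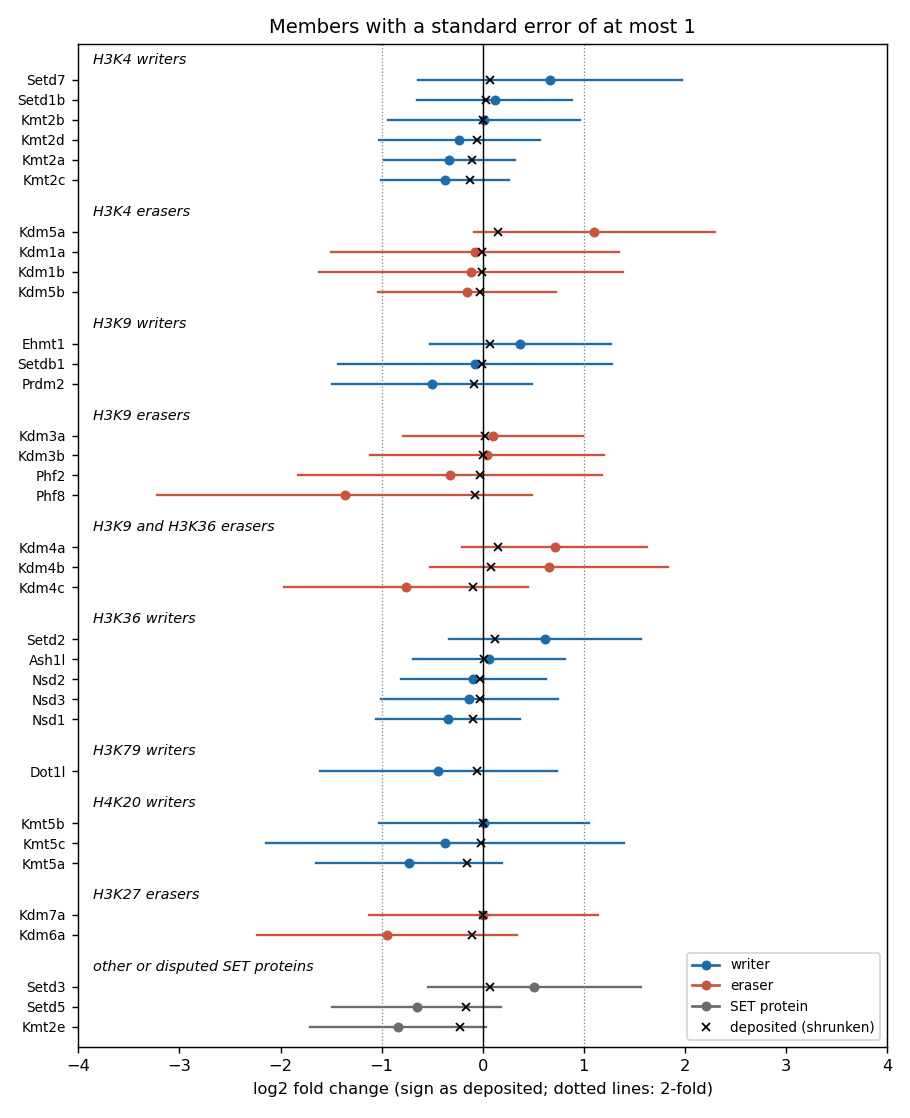
Log2 fold change (x axis, sign as deposited; dotted lines mark a 2-fold change) of the 34 enzymes with a reconstructed SE of at most 1, grouped by residue and role. Circles are reconstructed values with 95% intervals and crosses the authors' deposited shrunken values; every interval drawn includes 0, and Kmt2e and Kdm5a come nearest to leaving it out. Relative to epithelial markers, every reconstructed value, like that of any other gene, would lie 1.04 higher.

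Promoter sequence was a feature that the choice of members did not use. RefSeq promoter windows (GRCm38.p6), of 300 bases around a listed start of a gene, were found for 30 of the 44 enzymes and for 11547 genes of the table. The dinucleotide CG was counted in each window, which reads the same on both strands, and the start with the highest count was taken for each gene. The median was 33.5 CG per window for the enzymes and 20 for all genes, and 27 of 30 enzymes (90.0%) held at least 15, against 66.8% of all genes. Counts among the enzymes ran from 1 (Setd5) to 65 (Kdm7a). Of the 5 COMPASS writers, Kmt2a, Kmt2c and Kmt2d had a window; the highest and the lowest of these 3 are printed here, 5′ to 3′ on the gene's strand with each CG in capitals. Kmt2c (chr5:25498734-25499033, minus strand) held 56 and Kmt2d (chr15:98871156-98871455, minus strand) held 27. The Kmt2c window spans the outer start of its gene, at 25498855. The Kmt2d window lies inside its gene, whose outer start is at 98874077, so the 2 counts are not of like positions.
Kmt2c: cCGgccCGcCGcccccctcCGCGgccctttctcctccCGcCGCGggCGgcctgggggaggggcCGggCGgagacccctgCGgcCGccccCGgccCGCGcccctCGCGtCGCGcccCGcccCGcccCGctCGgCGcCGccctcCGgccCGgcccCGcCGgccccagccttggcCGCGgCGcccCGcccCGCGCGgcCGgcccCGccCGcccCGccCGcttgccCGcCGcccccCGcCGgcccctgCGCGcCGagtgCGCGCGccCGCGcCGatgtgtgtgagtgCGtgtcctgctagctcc
Kmt2d: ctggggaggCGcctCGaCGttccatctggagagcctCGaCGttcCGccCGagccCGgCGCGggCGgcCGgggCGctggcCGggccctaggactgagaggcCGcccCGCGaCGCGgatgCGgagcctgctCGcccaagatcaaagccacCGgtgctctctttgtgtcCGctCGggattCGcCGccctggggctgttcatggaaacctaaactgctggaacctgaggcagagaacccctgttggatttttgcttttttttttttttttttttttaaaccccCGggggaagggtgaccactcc
Of these, 18 and 1 lie in the last 100 bases of each window, which in Kmt2d holds a T-rich stretch. The reconstructed log2 fold changes of these 2 writers, -0.37 and -0.23, differed by less than either SE. A count of CG says nothing of methylation or binding, which were not measured in these libraries.

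The H3K4 erasers were not called either (0 of 4). Kdm5a (Entrez gene 214899; chromosome 6, 120364099 to 120444574, GRCm38), a JmjC demethylase that removes H3K4 di- and trimethylation, had the highest signed z of all 44 enzymes. The authors' deposited table gave it a mean count of 458, a log2 fold change of 0.15 ± 0.28 (posterior SD), an unadjusted p of 0.0756 and an adjusted p of 0.870. The reconstructed value was 1.10 ± 0.61 (SE), with an interval from -0.09 to 2.29, so that no change and a rise of up to 4.90-fold were both within it. Kdm5b, its close relative, was at -0.16 ± 0.45 (SE; p = 0.724 in the authors' deposited table). The flavin-dependent demethylases Kdm1a (LSD1) and Kdm1b (LSD2) lay near 0, at -0.08 ± 0.73 and -0.12 ± 0.77 (SE).

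Among the H3K9 methyltransferases, Setdb2 (Entrez gene 239122; chromosome 14, 59402009 to 59440880, GRCm38) was the single enzyme of all 44 past an unadjusted p of 0.05. The authors' deposited table gave it a mean count of 49.7, a log2 fold change of -0.05 ± 0.23 (posterior SD), an unadjusted p of 0.0088 and an adjusted p of 0.396. Its reconstructed z missed that of the deposited p by 0.617, so no size is given. Setdb1, the related enzyme that silences endogenous retroviruses, was at -0.08 ± 0.69 (SE; p = 0.908 in the authors' deposited table). The heterochromatin enzymes Suv39h1 and Suv39h2 had mean counts of only 53.3 and 54.1 and SEs of 1.62 and 1.33. Ehmt1 and Ehmt2 form the GLP and G9a heterodimer that dimethylates H3K9. Ehmt1 had a mean count of 485 and a value of 0.37 ± 0.46 (SE), whereas Ehmt2 had a mean count of 20.5 and an SE of 3.16. Prdm2 was at -0.50 ± 0.50 (SE; p = 0.315 in the authors' deposited table).

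The H3K9 erasers gave 0 calls among 4, and the demethylases shared between H3K9 and H3K36 gave 0 among 3. Kdm3a and Kdm3b, which remove H3K9 mono- and dimethylation, were at 0.10 ± 0.45 and 0.04 ± 0.59 (SE), and the interval of Kdm3a (-0.78 to 0.99) was within a 2-fold change. Phf8, an X-linked demethylase, had the lowest reconstructed value of the enzymes with an SE of at most 1, at -1.37 ± 0.95 (SE; p = 0.154 in the authors' deposited table), and its relative Phf2 was at -0.32 ± 0.77. The Kdm4 enzymes lay on both sides of 0. Kdm4a was at 0.71 ± 0.47 (SE; p = 0.128), Kdm4b at 0.66 ± 0.60 (p = 0.275) and Kdm4c at -0.76 ± 0.62 (p = 0.218), with p-values from the authors' deposited table; the difference between them was not tested, since their errors come from the same libraries.

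The H3K36 methyltransferases gave 0 calls among 5 and had a median SE of 0.38, against 0.59 over all the enzymes. Nsd1, which dimethylates H3K36, had the highest mean count of the enzymes, 1770.4, and was at -0.34 ± 0.37 (SE; p = 0.351 in the authors' deposited table). Nsd2 and Nsd3 were at -0.09 ± 0.37 and -0.13 ± 0.45 (SE), and Ash1l, a Trithorax-group protein, at 0.07 ± 0.38. Setd2, the enzyme that trimethylates H3K36 behind RNA polymerase II, had the smallest p of the class (0.209 in the authors' deposited table), at 0.62 ± 0.48 (SE). The intervals of Nsd2 (-0.81 to 0.62) and Ash1l (-0.69 to 0.82) were within a 2-fold change. On the eraser side, Kdm2a and Kdm2b, CXXC-domain proteins that bind unmethylated CpG, had mean counts of 26.6 and 9.55 and SEs of 2.15 and 2.57. The data therefore say next to nothing about the change of these 2 genes.

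Dot1l, the H3K79 methyltransferase and the only enzyme here without a SET or demethylase domain, was at -0.44 ± 0.60 (SE; p = 0.459 in the authors' deposited table). Of the H4K20 methyltransferases, Kmt5a places the first methyl group and is tied to the cell cycle, while Kmt5b and Kmt5c add the next ones. Kmt5a was at -0.73 ± 0.47 (SE; p = 0.119 in the authors' deposited table), with an interval from -1.64 to 0.19. Kmt5b was at 0.01 ± 0.53 and Kmt5c at -0.37 ± 0.90 (SE).

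The H3K27 demethylases oppose Polycomb. Kdm6a (UTX) is also a subunit of the Kmt2c and Kmt2d complexes and therefore sits in the same assemblies as Dpy30. Its mean count was 187 and its unshrunken value -0.95 ± 0.66 (SE), with an interval from -2.23 to 0.34 and p = 0.148 in the authors' deposited table. Kdm6b (JMJD3) was at -0.49 ± 1.34 and Kdm7a at 0.01 ± 0.58 (SE). Kdm6a lies on the X chromosome and escapes X inactivation, so its level can depend on the sex of the embryos. In the authors' deposited table the Y-linked genes Ddx3y, Kdm5d and Uty all had a negative sign, with unadjusted p-values of 0.0134, 0.162 and 0.127. The X-linked Xist had a mean count of 2831 and no p. Its deposited log2 fold change was 0.0076, of opposite sign to that of Kdm6a. The part of sex in the value of Kdm6a was not tested. Without the X-linked enzymes (Kdm6a, Phf8 and Suv39h1) the median log2 fold change was -0.03.

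The remaining SET-domain proteins include Kmt2e, an MLL-family protein that reads H3K4 trimethylation and has no established methyltransferase activity. Kmt2e (Entrez gene 69188; chromosome 5, 23433036 to 23504235, GRCm38) had, by the authors' deposited table, 541 mean counts, a log2 fold change of -0.23 ± 0.33 (posterior SD), an unadjusted p of 0.0589 and an adjusted p of 0.808. Its reconstructed value was -0.84 ± 0.45 (SE), with an interval from -1.71 to 0.03. Setd5, its close relative, was at -0.65 ± 0.43 (SE; p = 0.124 in the authors' deposited table). Setd3, the actin histidine methyltransferase, was at 0.51 ± 0.54 (SE). Smyd3 and Smyd5 had mean counts of 13.6 and 61.4 and SEs over 1. Smyd2, which methylates several non-histone proteins, had an SE of 1.85 at a mean count of 235, and only 18 of 3586 genes with a mean count between 100 and 300 (0.502%) had a larger one. Its value was singled out after it was seen, and without values per library the source of that spread cannot be placed.

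The values of writers and erasers overlapped. The median reconstructed log2 fold change was -0.08 over 21 writers and -0.03 over 16 erasers, with 12 of 22 writers and 8 of 16 erasers negative. Residue classes with at least 4 reconstructed members had medians of -0.11 for H3K4 writers, -0.10 for H3K4 erasers, 0.51 for H3K9 writers, -0.14 for H3K9 erasers and -0.09 for H3K36 writers. The H3K9 writer median rests on enzymes with few counts: 3 of its 6 members had an SE over 1.

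What the data could have shown follows from the errors. The SE fell with abundance, from a median of 1.62 for 9 enzymes with a mean count under 100 to 0.69 for 11 between 100 and 300 and 0.46 for 21 between 300 and 1000. Over all genes the corresponding medians were 2.06, 0.75 and 0.48. The smallest absolute z among the 90 genes called in the authors' deposited table was 3.58. At that z, Kmt2c, with the smallest SE, would have needed a log2 fold change of 1.15 to be called, and the median enzyme 2.12. A change below 2-fold would have been called for 0 of 43 enzymes, and 23 of 43 needed more than a 4-fold change. The 95% interval lay within a 2-fold change for 6 of 43 enzymes (14.0%, against 4.08% of all genes with a reconstructed value), namely Kmt2a, Kmt2b, Setd1b, Nsd2, Ash1l and Kdm3a. This count rests on the reconstruction: it was 37 with a larger and 0 with a smaller prior scale, which returned the deposited p for 14.6% and 1.06% of all genes, against 90.8% at the fitted scale. It lay within a 4-fold change for 30 of 43 (69.8%, against 30.7%).

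**Figure D3:**
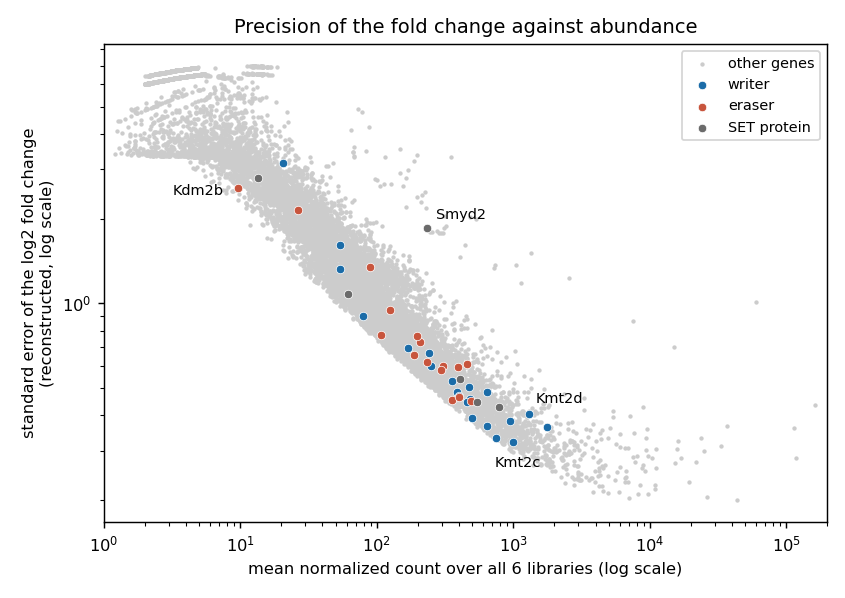
Standard error of the reconstructed log2 fold change (y axis, log scale) against the authors' mean normalized count over 6 libraries (x axis, log scale), for the 43 enzymes coloured by role and for the other genes in grey. Kmt2c has the smallest SE of the enzymes, 0.32, while Smyd2 lies far above genes of like abundance at 1.85.

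Most of the enzymes were expressed above the typical gene. Mean counts ran from 9.55 (Kdm2b) to 1770.4 (Nsd1). Because long transcripts collect more reads, levels are compared between genes per kilobase of the longest protein-coding GENCODE M21 transcript, which had a median length of 6361 bases for the enzymes and 3151 bases for all 13589 genes with a length. On this scale the median level was 50.5 for the 44 enzymes and 23.9 for all genes, and 34 of 44 enzymes lay above the all-gene median. Kmt5a and Setd3 were highest at 147 each, followed by Smyd2 (139.8) and Nsd1 (138). Given the SE of 1.85 for Smyd2, its mean may rest on few libraries, which cannot be seen without values per library. The 5 COMPASS writers were close to each other, from 45.4 per kilobase for Kmt2a to 66.6 for Kmt2c, a ratio of 1.47. Kdm2b (1.84), Smyd3 (1.97), Kdm2a (3.10) and Ehmt2 (5.08) were lowest. The table names 1 UCSC transcript for each gene, and the sources used here do not state whether the count is that of the transcript or of the whole gene, so a low level may belong to 1 transcript only.

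**Figure D4:**
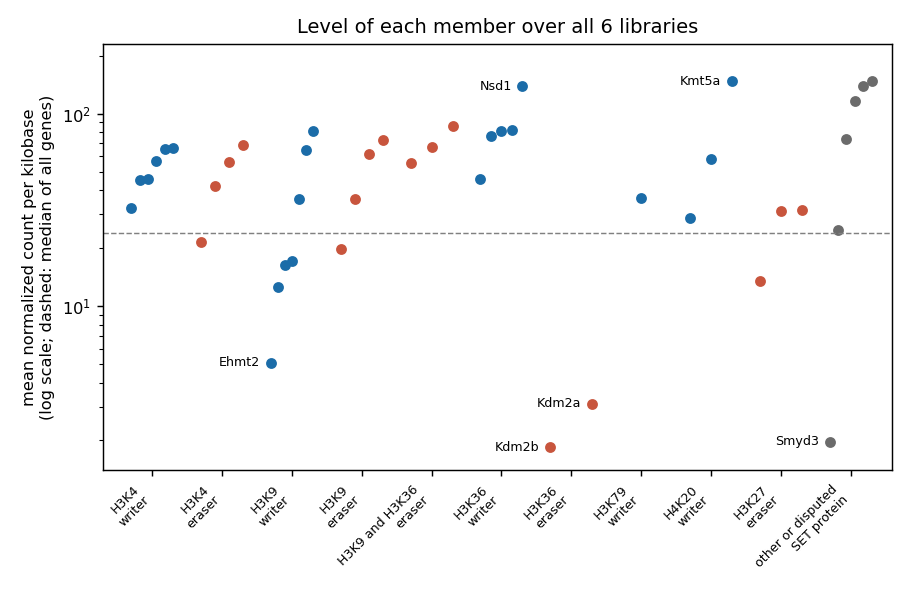
Authors' mean normalized count over 6 libraries divided by transcript length (y axis, counts per kilobase, log scale) for each of the 44 enzymes, by residue and role (x axis). The dashed line is the median of all genes, 23.9; Kmt5a (147) and Nsd1 (138) lie among the highest and Kdm2b, Smyd3, Kdm2a and Ehmt2 lie lowest.

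Partner proteins of these enzymes gave 0 calls as well. Of 15 listed partners in H3K4 methyltransferase complexes, 13 were in the table, without Wdr5 and Ash2l of the COMPASS core. Of the 12 with a p, 0 passed an unadjusted p of 0.05 by the authors' DESeq2 test. Cxxc1, the CpG-binding subunit of the SET1 complexes, was at -0.72 ± 0.48 (SE), Hcfc1 at -0.34 ± 0.45, and Men1 (menin), which joins the Kmt2a and Kmt2b complexes, at -0.50 ± 0.75. Dpy30 itself had a mean count of 29.4 and a value of 0.50 ± 1.66 (SE), so that this table does not show the deletion. Of 11 demethylase partners in the table, 9 had an adjusted p and 0 were called. Phf21a, a subunit of the LSD1 complex, was the 1 past an unadjusted p of 0.05, and lay above 0. Its p was 0.0126 and its adjusted p 0.472, both from the authors' deposited table. Of 11 partners and readers of H3K9 and H4K20 methylation and 14 of H3K36 and H3K79 methylation, 0 were called and 0 passed an unadjusted p of 0.05. The same held for 18 other histone methylation enzymes in the table, 14 of them with an adjusted p. Among these, Ezh1 was at -0.42 ± 1.05 and Ezh2 at -0.14 ± 0.81 (SE).

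Markers of several cell types differed in the same comparison. Acinar markers had a median reconstructed log2 fold change of -1.66 (7 of the 12 with an adjusted p called, all lower). Of 13 in the table, 8 were negative and 5 positive. Of the positive ones, Cela1 was at 0.56 ± 0.28 (SE), with p = 0.0483 in the authors' deposited table. The transcription factors Ptf1a, Rbpjl and Bhlha15 were at 0.34 ± 0.93, 0.04 ± 0.52 and 0.01 ± 0.42 (SE). Endocrine markers had a median of -2.65 over 7 reconstructed values. Of 9 in the table, 7 had an adjusted p and 4 were called, all lower. Over all genes with an adjusted p, 0.743% were called. The 10 epithelial markers were all negative, with a median of -1.04, a range from -4.06 to -0.05 and 1 called (Krt18). The smallest SEs were those of Krt18 (-1.23 ± 0.28), Spint2 (-0.05 ± 0.34), Cdh1 (-0.49 ± 0.38) and Krt8 (-0.36 ± 0.43). Of these, Spint2, Cdh1 and Krt8 lay above the median, so the epithelial shift is loosely determined. Of 11 mesenchyme markers, 10 were positive, with a median of 0.53 and 0 called. Blood cell markers were positive in 7 of 7, with 1 called (Gata1), and endothelial markers were negative in 4 of 7 with 0 called. Setting values against the epithelial median adds 1.04 to every gene and put the median enzyme at 0.97. Before this shift the median was -0.07 for the enzymes and 0.08 for all genes. On that scale 18 of 43 enzymes, all 5 COMPASS writers among them, were higher and past an unadjusted p of 0.05. Over all 13059 genes, 19.1% passed in either direction. The calculation takes the epithelial shift as known without error. A shift common to all genes passes this threshold more readily at a small SE. The median SE was 0.39 for the 5 COMPASS writers, 0.59 for the enzymes and 1.19 for all genes. Genes of like abundance were not compared on this scale. The part of cell composition in the enzymes' values was not tested.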

How the data were processed

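RNA of dorsal pancreas was measured in 3 knockout and 3 control samples, grouped by title. The submitters' processing notes name Trimmomatic, Salmon, DESeq2 and GRCm38 (mm10), without versions; annotation, filters and model were not given in the sources used here. For each of 14681 genes the authors deposited a signal, the mean normalized count over the libraries, a shrunken log2 fold change with its error, and a p-value, unadjusted and adjusted. It sums to 3663175 mean counts; the depth of each library is unknown. No gene was tested again: calls are the authors' (adjusted p under 0.05), over 12108 genes, of which 90 were called.

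Unshrunken log2 fold changes were reconstructed by taking the deposited value as the mode and its error as the curvature-based SD of a posterior with a Cauchy prior of 1 scale. The scale that returned most deposited p-values, 0.31025, gave a z within 0.1 of the deposited one for 90.8% of the 14386 genes with a p; values outside this are not printed as sizes. The condition is easily met where z is near 0 and the error is large, so values with an SE over 1 are loosely determined. A simulation under the same model checked the arithmetic of the step. It cannot show that the deposited values follow that model. Intervals are at 95%. Calculations used Python 3.11.15 with numpy 2.4.6, scipy 1.17.1 and pandas 2.3.3.

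The enzymes and the partner and marker lists were chosen with earlier results of these data known, so lists are described by counts and medians only. Full values are given for COMPASS writers, enzymes with a p under 0.05, the 2 with the smallest p in each class, the 3 highest and 3 lowest in mean count and the 5 narrowest intervals; for these, values with an SE over 1 are given as the SE alone in places. Alternatives concerned the adjustment, the threshold, the prior scale, low counts and the centring of fold changes.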

Additional observations from a re-analysis of the deposited data

How the results depend on the processing

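The count of called enzymes was 0 with the authors' adjustment, with Benjamini-Hochberg adjustment over all 14386 genes with a p and at an adjusted p under 0.1, where 129 genes were called; 1 enzyme had an unadjusted p under 0.05, and no other tool could be run on a table without counts per library. The count at an unadjusted p under 0.05 was 1, and became 0 among genes with a mean count of at least 50, since Setdb2 lies just under it, and 0 when values were centred on the median of well determined genes, since Setdb2 has no reconstructed value. Relative to epithelial markers, which adds 1.04 to every gene, it was 18, all higher, while 19.1% of all genes passed in either direction. That scale favours genes with a small SE, as many of the enzymes have, and genes of like abundance were not compared. The median log2 fold change, -0.07, stayed within 1.5 times under 4 of 11 alternatives. It was -0.0037 for the deposited shrunken values, -0.0090 with the larger of 2 other prior scales, -0.030 when centred on well determined genes, -0.033 without X-linked enzymes, 0.010 without the enzymes found under a newer symbol, -0.69 with the smaller scale, which gave a value for only 9 enzymes, and 0.97 relative to epithelial markers. The count of intervals within a 2-fold change was 6; it was 0 with 99% intervals, 37 with the larger scale and 0 with the smaller one. These returned the deposited p for 14.6% and 1.06% of genes, against 90.8% at the fitted scale. A scale almost equal to the fitted one left the count at 6. This scale was chosen after seeing the data, as were the alternatives on X-linked and newer-symbol members. So small a step could hardly move the count and cannot test how far it depends on the scale. The same scale is among the 4 alternatives that kept the median within 1.5 times, and cannot test the median either. Leaving out replicates was not run, since the table has no values per library. No paired analysis was possible because the table carries no column per sample.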
